A study of Mus musculus with 18 samples.

Results

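The miR-30 family is a group of mouse microRNAs whose 5p strands share one seed. It was followed here through small RNA of C2C12 cells as 7 names of the deposited table of 2042 names, the guide strands mmu-miR-30a-5p, mmu-miR-30b-5p, mmu-miR-30c-5p, mmu-miR-30d-5p and mmu-miR-30e-5p and the opposite arms mmu-miR-30a-3p and mmu-miR-30e-3p, written below without the species prefix. The names were chosen by name and not by a rule on their values, although earlier results of these data were known. All 7 had reads. C2C12 cells are mouse myoblasts, an established line, and form myotubes once serum is lowered. The 18 libraries fell into 6 groups of 3, which were eluates of a bait made from the 3'UTR of MRTF-A, eluates of an MS2 control and input RNA, each from cells after 7 days of myogenic differentiation in 2% horse serum and from undifferentiated cells grown with 10% fetal calf serum. The treatment text of the labels gives the 7 days for undifferentiated samples too, so the state was read from the titles and the differentiation label. In miTRAP, a trap for miRNAs by RNA affinity purification, a bait RNA with MS2 hairpins is held on a resin, cell extract is passed over it, and the small RNA that stays bound is eluted and sequenced. MRTF-A, encoded by Mrtfa, is a coactivator of serum response factor. All groups came from the same line, and the labels name no clone.

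A microRNA is cut from a hairpin precursor as a duplex of a 5p and a 3p strand. One strand, the guide, is usually loaded into an Argonaute protein and pairs through its seed, bases 2 to 8, with target mRNAs, while the other strand is mostly degraded. The miR-30 family is broadly expressed and is known in muscle and heart, among others, for targets in fibrosis, autophagy and differentiation.

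Mature sequences of 5 of the 7 members, from RefSeq on GRCm38.p6, show what the members share, and bases 2 to 8 are in capitals.
miR-30a-5p: uGUAAACAuccucgacuggaag
miR-30e-5p: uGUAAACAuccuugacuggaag
miR-30c-5p: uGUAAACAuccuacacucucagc
miR-30a-3p: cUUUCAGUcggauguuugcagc
miR-30e-3p: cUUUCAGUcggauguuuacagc
The 3 guide strands shown carry the seed GUAAACA, and both opposite arms carry UUUCAGU. Counted from 1 at the 5′ end, miR-30a-5p and miR-30e-5p differ at 1 of 22 bases, C13U, and miR-30a-3p and miR-30e-3p differ at 1 of 22 bases, G18A. miR-30a-5p and miR-30c-5p differ at 5 of the 22 aligned bases, all of them outside the seed. How reads that match several names were counted is not given in the sources used here, so the split of reads between miR-30a and miR-30e is uncertain.

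The hairpins lie in pairs. On GRCm38.p6, miR-30a-5p is read from chr1:23272274-23272295 on the plus strand and miR-30a-3p from chr1:23272315-23272336, and the hairpin of Mir30c-2 starts 19361 bases after that of Mir30a ends. miR-30e-5p is read from chr4:120772660-120772681 on the minus strand and miR-30e-3p from chr4:120772618-120772639, and Mir30c-1 lies 2983 bases away on the same strand. miR-30c-5p has the same sequence at both of its loci, so its reads cannot be assigned to Mir30c-1 or Mir30c-2.

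Depth differed between the kinds of library. Bait eluates held 306483 to 544504 reads in differentiated and 107165 to 352674 in undifferentiated cells, MS2 control eluates 15562 to 23433 and 20525 to 39695, and inputs 314110 to 462847 and 294112 to 860828. One read was worth 11.9 to 34.3 CPM in the MS2 controls, where CPM is the deposited normalised counts-per-million value, and 1.66 to 3.05 CPM in the inputs. Letters A, B and C name the libraries of a group and were not used to pair libraries between groups. Whether replicate libraries of a group derive from different cultures is not stated in the labels, and every p-value therefore covers library-to-library spread alone, part of which may be technical. The summed level of 6 muscle miRNAs was 48696 to 77883 CPM in differentiated and 431 to 3441 CPM in undifferentiated input, and all 6 passed the test. The blood, epithelial and endothelial miRNAs listed summed, list by list, to at most 9.18 CPM in any input. The neural pair summed to 38.7 to 67.6 CPM in differentiated and 158 to 262 CPM in undifferentiated input, with miR-124-3p at 0 in both. The MS2 libraries were of 2 kinds. Differentiated A and B and undifferentiated A had 0.755% to 0.930% of their reads on human-named miRNAs, and the other 3 had 0.0900% to 0.115%.

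Among the 5 guide strands, miR-30a-5p and miR-30d-5p held most reads, and the order of these 5 by mean CPM was the same in both inputs. miR-30a-5p ranked 9 by mean CPM among the names with a read in differentiated input and 8 in undifferentiated input, and miR-30d-5p ranked 14 and 17. Of the reads of the 5 guide strands, miR-30a-5p took 58.8% ± 4.6 in differentiated and 62.2% ± 2.1 in undifferentiated input (SD, n = 3 each). miR-30d-5p took 32.5% ± 3.7 and 25.5% ± 4.3. miR-30e-5p took 5.60% ± 0.55 and 8.10% ± 2.94. miR-30c-5p took 2.30% ± 0.16 and 3.42% ± 0.69, and miR-30b-5p 0.892% ± 0.328 and 0.753% ± 0.190. In both bait eluates miR-30a-5p and miR-30d-5p were still the first and second, with 49.6% ± 5.1 and 33.8% ± 8.4 in differentiated and 52.3% ± 2.0 and 30.0% ± 7.7 in undifferentiated cells. In the MS2 control of differentiated cells they stood close together, at 41.5% ± 14.9 for miR-30a-5p and 41.2% ± 2.0 for miR-30d-5p, on 50 to 108 guide reads a library.

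**Figure D1:**
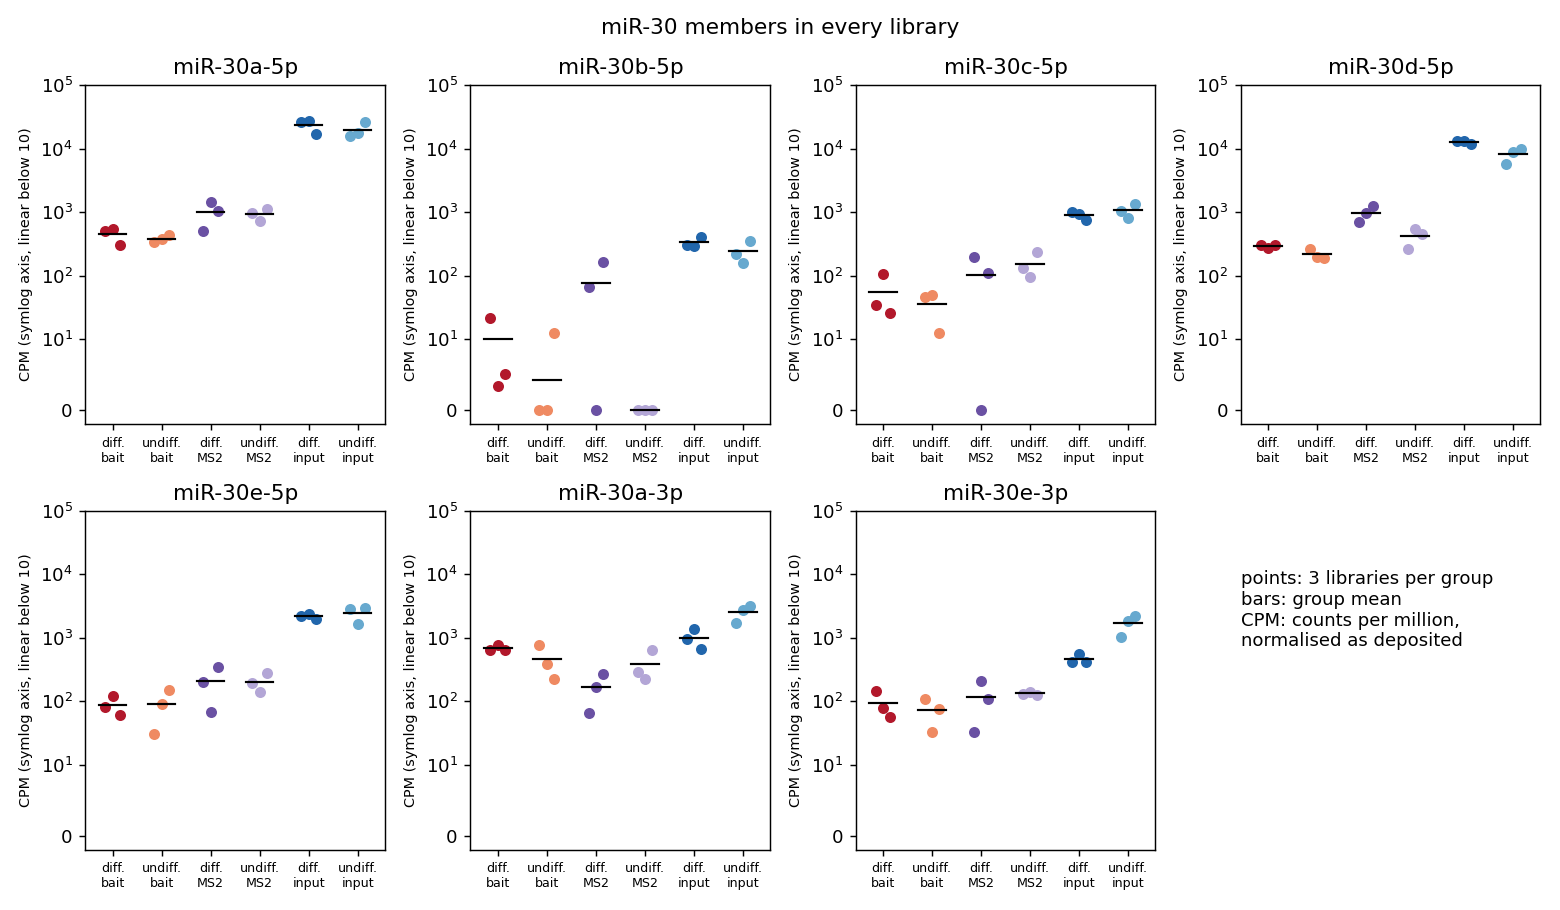
CPM of each miR-30 member in the 3 libraries (points) of each of 6 groups, with the group mean as a bar, on an axis that is linear below 10 and logarithmic above. Of the guide strands, all but miR-30b-5p are lower in every eluate library than in every input library, while miR-30a-3p in the bait eluates of differentiated cells, 638 to 763 CPM, reaches the level of the differentiated inputs, 662 to 1358 CPM.

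The plot of members by library shows the 6 levels of each name. For miR-30a-5p the inputs had the highest group means, the MS2 controls came next and the bait eluates were lowest. The 2 states overlapped at each of these 3 steps. For miR-30d-5p the groups stood in the same order, and only the undifferentiated MS2 control and the differentiated bait eluate overlapped as neighbours. For miR-30a-3p the order was different, with both bait eluates above both MS2 controls by group mean, although the lowest 5 groups each overlapped their neighbour in that order. miR-30b-5p was the scarcest member. It had 5, 1 and 1 reads in differentiated and 0, 0 and 1 reads in undifferentiated bait eluates, and none in the 3 undifferentiated MS2 controls. That is 0 of 84591 reads, which allows a share of up to 0.00355% (3 reads over the group, counting error only).

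In input, the question is how the family changed between the states. The guide strands together took 5.76%, 5.00% and 4.71% of all reads in the differentiated libraries, against 2.83%, 2.98% and 2.86% in the undifferentiated ones. The 2 opposite arms together took less of the differentiated libraries, with 0.186%, 0.221% and 0.160% in differentiated and 0.305%, 0.462% and 0.378% in undifferentiated libraries. The groups did not overlap in either sum. On the deposited scale, whose factors come from all 18 libraries, the median of the 313 names tested was -0.64 on the log2 scale, and values relative to it stand beside the changes.

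Of the 7 members, none rose and 2 fell, in a comparison where 62.3% of the names tested were called, 16.0% higher and 46.3% lower (limma, adjusted p under 0.05). The median of the members was -0.16. miR-30a-3p measured 951, 1358 and 662 CPM in differentiated input, against 1690.1, 2709 and 3154 CPM in undifferentiated input. All 3 differentiated libraries lay below the undifferentiated ones, and the fall was 1.35 ± 0.36 on the log2(CPM + 10) scale (SE; limma adjusted p = 0.00621), or -0.71 relative to the median. miR-30e-3p measured 417, 562 and 417 CPM, against 1038, 1809 and 2232 CPM in undifferentiated input. Again the groups did not overlap, and it fell by 1.79 ± 0.35 (limma adjusted p = 0.000766), or -1.15 relative to the median. By the authors' deposited values the log2 fold change was -1.35 for miR-30a-3p, with an FDR of 0.0692 that is above 0.05. For miR-30e-3p it was -1.86 (authors' FDR 0.000496).

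The guide strands of the same 2 hairpins did not pass the test. miR-30a-5p had 25868, 26867 and 17014 CPM in differentiated input and 15564, 17665 and 26384 CPM in undifferentiated input. These groups overlapped, with 2 libraries of each state within the range of the other, and the log2 difference was 0.23 ± 0.34 (limma adjusted p = 0.567). miR-30e-5p averaged 2172 ± 176 CPM in differentiated and 2500.0 ± 737 CPM in undifferentiated input (SD, n = 3 each). Its log2 difference was -0.16 ± 0.32. miR-30d-5p, the second most abundant member, had 12964, 13060.3 and 11691 CPM, against 5627, 8824 and 9796 CPM in undifferentiated input. All differentiated libraries were higher, by 0.67 ± 0.32 on the log2 scale, with limma adjusted p = 0.0857. miR-30b-5p differed by 0.52 ± 0.36 and miR-30c-5p by -0.23 ± 0.32 on the log2 scale. Relative to the median of all names tested, the log2 differences were 1.31 for miR-30d-5p, 1.16 for miR-30b-5p, 0.87 for miR-30a-5p, 0.48 for miR-30e-5p and 0.40 for miR-30c-5p.

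The calls in input depended on the scaling. With median-ratio factors, library totals, TMM factors of the 6 inputs alone or DESeq2, the median of all names was -0.08 to -0.24 and 3 guide strands rose. miR-30a-5p was then higher by 0.74 to 0.94 on the log2 scale, miR-30b-5p by 1.02 to 1.24 and miR-30d-5p by 1.18 to 1.35 (adjusted p of 0.0179 at most), while miR-30c-5p and miR-30e-5p turned positive without a call. miR-30e-3p stayed lower and past the threshold under all 14 alternatives, with -1.11 to -2.10. miR-30a-3p stayed lower under all 14 and lost its call in 3 of these 4, with -0.67 to -0.71 and adjusted p of 0.0556 to 0.0908. Without undifferentiated library C, miR-30d-5p passed with 0.83 (limma adjusted p = 0.0491).

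**Figure D2:**
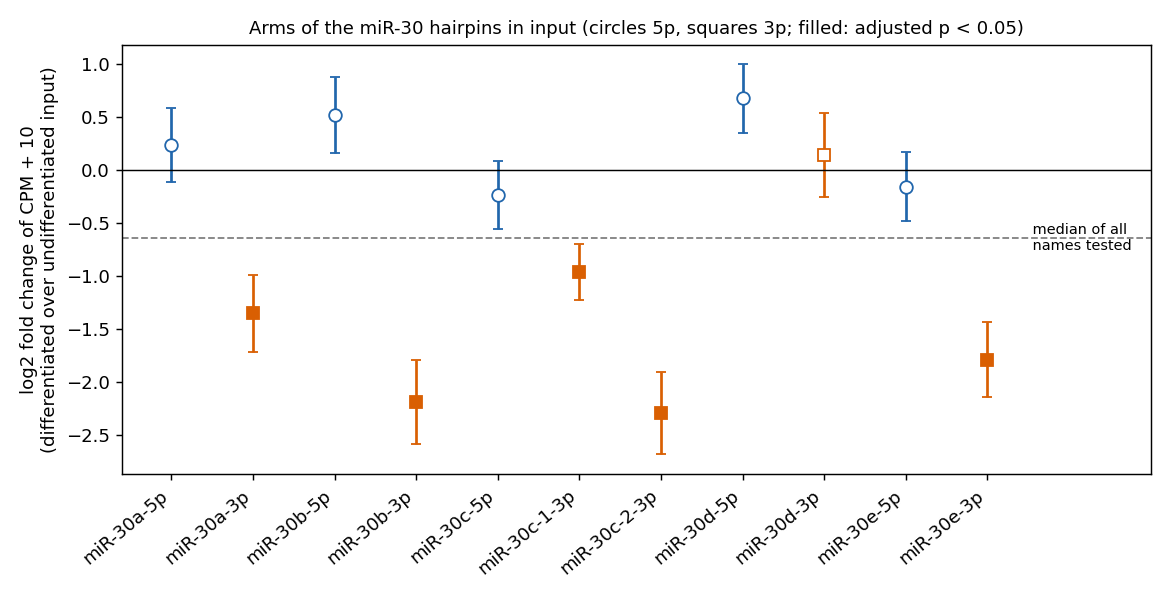
Log2 fold change of CPM + 10 in differentiated over undifferentiated input for each arm of the miR-30 hairpins (mean difference ± SE from limma, 3 libraries per group), with the median of all names tested as a dashed line. The 5p arms (circles) lie between -0.23 and 0.67 and above the median, and 5 of the 6 3p arms (squares) lie below it, the exception being miR-30d-3p at 0.14.

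The other opposite arms of the family, which are not among the 7 members, are set beside them in the plot of input fold changes. Of 4 tested, 3 fell and 1 did not pass, where 46.3% of the 313 names tested were called lower and 16.0% higher. The median of these 4 arms was -1.57 on the log2 scale, against -0.64 over all names. miR-30c-2-3p had 44.1, 69.5 and 23.7 CPM in differentiated and 183, 272 and 302 CPM in undifferentiated input, and it fell by 2.29 ± 0.39 (limma adjusted p = 0.000285). miR-30b-3p had 5.51, 30.1 and 17.2 CPM in differentiated input against 125, 72.2 and 133 CPM in undifferentiated input, and it fell by 2.18 ± 0.39 (limma adjusted p = 0.000419). miR-30c-1-3p, on 2 to 14 reads a library, fell by 0.96 ± 0.27 (limma adjusted p = 0.00752). That call was lost under 5 of 14 alternatives, among them without differentiated library A (limma adjusted p = 0.0535). By the authors' deposited values miR-30c-1-3p had a log2 fold change of -1.59 (FDR 0.539). There miR-30c-2-3p had an FDR of 0.000192 and miR-30b-3p of 0.000106. miR-30d-3p averaged 32.5 ± 16.3 CPM in differentiated and 29.9 ± 18.8 CPM in undifferentiated input (SD, n = 3 each) and differed by 0.14 ± 0.40 on the log2 scale. For all 6 of these 3p arms the log2 difference was below that of the 5p arm of the same hairpin, miR-30c-5p standing for both of its loci. These orders were not tested.

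Sequences of 3 names beside the family show how they relate to it.
miR-30c-2-3p: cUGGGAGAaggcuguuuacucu
miR-384-5p: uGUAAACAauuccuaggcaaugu
miR-30f: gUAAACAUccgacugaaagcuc
miR-384-5p carries the family seed and had few reads, 0 in the 3 differentiated inputs and 2, 0 and 4 in the undifferentiated ones. miR-30f, at chr4:120772621-120772642 on the plus strand, lies opposite the hairpin of miR-30e and is complementary to miR-30e-3p over 19 of its 22 bases. It had 1, 0 and 0 reads in differentiated and 8, 10 and 22 reads in undifferentiated input (limma adjusted p = 3.95e-05), and none in any eluate. Whether the counting used strand is not given in the sources used here, so these reads and those of miR-30e-3p cannot be told apart with certainty.

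The ratio of the 5p to the 3p arm within a library does not depend on the scaling between libraries. For miR-30a it was 0.796, 0.703 and 0.484 in bait eluates of differentiated cells and 0.440, 0.979 and 1.89 in those of undifferentiated cells. In the MS2 controls it was 7.5, 8.4 and 3.9 in differentiated and 3.22, 3.26 and 1.73 in undifferentiated cells. In the inputs it was 27.2, 19.8 and 25.7 in differentiated and 9.21, 6.52 and 8.36 in undifferentiated cells. The inputs held mostly the 5p arm in both states. Of the 6 bait libraries 5 held more 3p than 5p reads, and undifferentiated bait C held more 5p. In differentiated cells no bait library reached any MS2 library, and in undifferentiated cells the highest bait library lay above the lowest MS2 library.

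These ratios were tested after their values had been seen, with 10 exact 2-sided permutation tests in all. The tests used the log2 ratio with 0.5 read added to each arm. Libraries were permuted within a state, and for contrasts between the states within a kind of library. Averaged over the 2 states, the miR-30a ratio was 17.7-fold lower in bait eluates than in input, and lower in 6 of 6 bait libraries (exact permutation p = 0.005, the smallest that 400 arrangements allow, adjusted p = 0.025). The log2 difference was -5.21 in differentiated and -3.09 in undifferentiated cells. The averaged ratio was 4.91-fold lower in bait eluates than in MS2 controls (exact permutation p = 0.01, adjusted p = 0.0333), with -3.12 and -1.47 in these states. It was 3.62-fold lower in MS2 controls than in input (exact permutation p = 0.005, adjusted p = 0.025), with -2.09 and -1.62. The bait against MS2 difference was -2.03, -2.23 and -2.22 on the log2 scale without undifferentiated bait A, MS2 A and MS2 B in turn. It then sat at the threshold (exact permutation, adjusted p = 0.05 each). Between the states, the ratio was 3.02-fold higher in differentiated input, with all 3 libraries higher (exact permutation p = 0.1, the smallest that 3 against 3 allows). Within all 3 kinds of library together the state difference was 0.73 on the log2 scale (exact permutation p = 0.0542, adjusted p = 0.13). It averages 1.59 in inputs, 1.13 in MS2 controls and -0.53 in bait eluates, which went the other way. Without undifferentiated bait C the joint difference was 0.90 (exact permutation, adjusted p = 0.0225).

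For miR-30e the group means of the ratio lay closer together, on fewer reads, while libraries of a group mostly spread more. The SD of its log2 ratio was 1.88 in differentiated MS2 controls and 1.59 in undifferentiated bait eluates. For miR-30a these were 0.53 and 1.03. Only in differentiated input was the SD smaller for miR-30e, 0.18 against 0.24. Its ratio was 5.29, 4.15 and 4.75 in differentiated input and 2.77, 0.912 and 1.33 in undifferentiated input, which did not overlap. In bait eluates it was 0.576, 1.5 and 1.09 in differentiated and 0.286, 2.75 and 2 in undifferentiated cells, on 2 to 36 reads an arm. Averaged over the states, the ratio was 2.47-fold lower in bait eluates than in input, which did not pass (exact permutation p = 0.065, adjusted p = 0.13). The log2 difference was -2.26 in differentiated and -0.35 in undifferentiated cells. Bait minus MS2 eluates gave an average of -0.55 on the log2 scale (exact permutation p = 0.445). MS2 controls held 1 to 13 reads of either arm, with ratios of 6, 0.333 and 3.25 in differentiated and 1.5, 1 and 2.17 in undifferentiated cells.

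**Figure D3:**
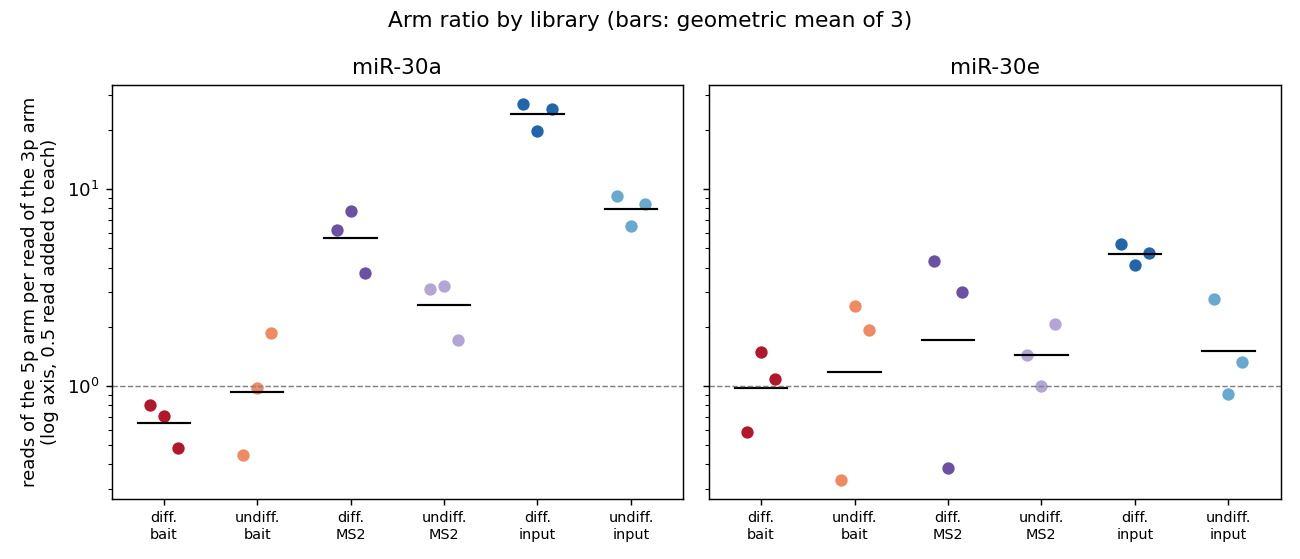
Reads of the 5p arm per read of the 3p arm for miR-30a (left) and miR-30e (right) in each library, on a log axis with 0.5 read added to each arm; bars are geometric means of 3 libraries. For miR-30a the bait libraries lie between 0.44 and 1.9, the MS2 controls between 1.7 and 8.4 and the inputs between 6.5 and 27.2 by the reads themselves.

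As a share of all 7 members' reads, the 2 opposite arms made up 46.5% ± 2.7 in differentiated and 40.3% ± 14.7 in undifferentiated bait eluates. They made up 10.1% ± 4.0 and 22.8% ± 3.8 in the MS2 controls, and 3.55% ± 0.60 and 11.6% ± 1.9 in the inputs (SD, n = 3 each).

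Eluates were next compared with the input they came from. The guide strands were scarce in every eluate. Together they made up 0.0530%, 0.0575% and 0.0447% of the reads of differentiated bait eluates, against 5.76%, 5.00% and 4.71% of input, so their mean share was 99.7 times as large in input. On the normalised CPM scale, which the tests used, their mean sum was 43.5 times as large in input. In undifferentiated cells they made up 0.0411%, 0.0247% and 0.0447% of bait reads, against 2.83%, 2.98% and 2.86% of input. In the MS2 controls the shares were 0.221%, 0.307% and 0.694% in differentiated and 0.229%, 0.320% and 0.398% in undifferentiated cells. The smallest of these, 50 of 22586 reads, has a 95% Wilson interval of 0.168% to 0.292%, which covers counting error only. The opposite arms were reduced less in share, with 4.23 times as much in input as in bait eluates in differentiated cells and 13.5 times in undifferentiated cells. By mean CPM these were 1.88 and 7.89 times.

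With the bait in differentiated cells, 6 of the 7 members were lower than in input and none was higher, where 62.0% of the 305 names tested were called, 31.1% higher and 30.8% lower. The median of the members was -4.20 on the log2 scale, against -0.14 over all names. miR-30a-5p had 510.1, 536 and 309 CPM in these eluates against 25868, 26867 and 17014 CPM in input, a log2 difference of -5.67 ± 0.37 (limma adjusted p = 1.16e-09). miR-30d-5p had 305, 277 and 303 CPM against 12964, 13060.3 and 11691 CPM in input, a difference of -5.37 ± 0.32 (limma adjusted p = 3.83e-10). The differences were -4.51 ± 0.55 for miR-30e-5p, -3.98 ± 0.83 for miR-30c-5p and -4.20 ± 0.74 for miR-30b-5p. The miR-30b-5p value rests on 5, 1 and 1 eluate reads and ran from -5.30 to -2.69 under the alternatives. miR-30e-3p had 144, 80.0 and 56.6 CPM against 417, 562 and 417 CPM in input, a difference of -2.27 ± 0.54 (limma adjusted p = 0.00133). miR-30a-3p was the exception. It had 641, 763 and 638 CPM in the eluates and 951, 1358 and 662 CPM in input, which overlapped, and its difference was -0.48 ± 0.53 (limma adjusted p = 0.434). With library totals as the scale it was -1.65 (limma adjusted p = 0.0273).

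With the bait in undifferentiated cells all 7 members were lower than in input, where 68.5% of the names were called, 23.3% higher and 45.2% lower. The median of the members was -4.65, against -1.04 over all names. The differences were -5.63 ± 0.37 for miR-30a-5p, -5.13 ± 0.32 for miR-30d-5p and -4.80 ± 0.55 for miR-30e-5p. They were -4.65 ± 0.83 for miR-30c-5p, -4.42 ± 0.54 for miR-30e-3p and -2.54 ± 0.53 for miR-30a-3p. miR-30b-5p had 1 read in all over these eluates, against 73, 56 and 209 reads in input, and its fitted value depends on the pseudocount. All 7 calls held under all 26 alternatives, and so did the 6 calls in differentiated cells.

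**Figure D4:**
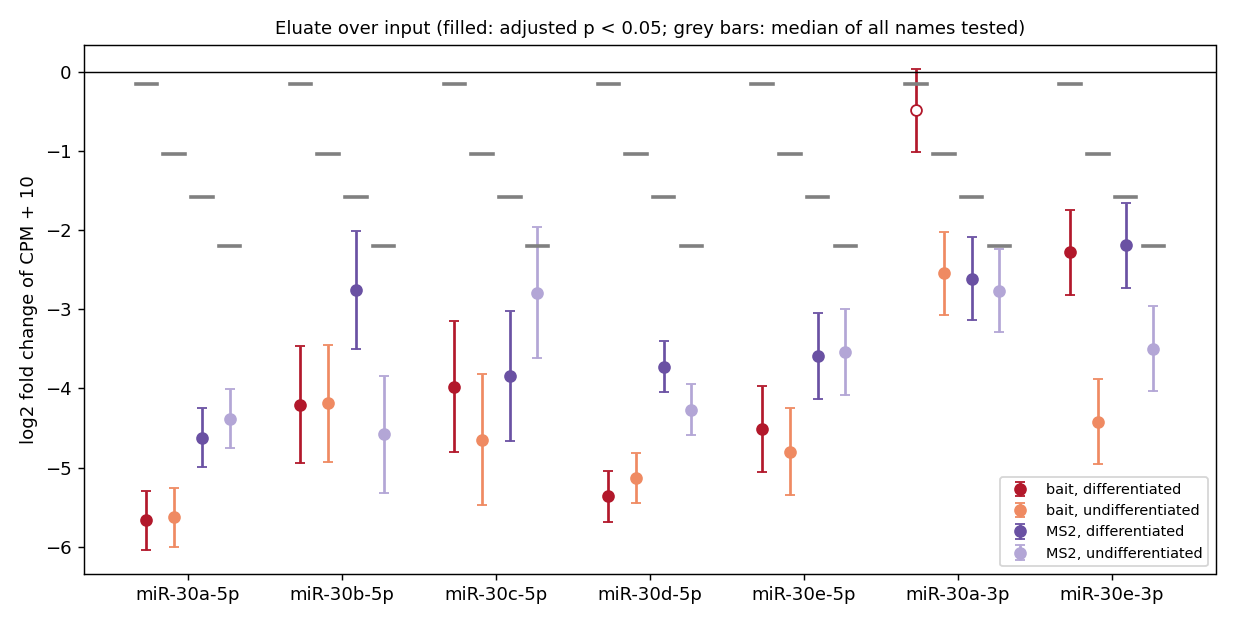
Log2 fold change of CPM + 10 in eluate over input (± SE from limma, 3 libraries per group) for each member with the bait and the MS2 control in differentiated and undifferentiated cells; grey bars are the medians of all 305 names tested. Of 28 values, 27 passed the test and are lower in eluate, the exception being miR-30a-3p with the bait in differentiated cells at -0.48.

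By its label, the MS2 control was taken to lack the MRTF-A 3'UTR and to give the background of the procedure. No eluate group lacked MS2 RNA, so binding to the resin and to the MS2 hairpins cannot be told apart. All 7 members were lower in the MS2 control than in input in both states. In differentiated cells 69.2% of the names were called, 15.4% higher and 53.8% lower, the members' median was -3.59 and that of all names -1.58. In undifferentiated cells 71.1% were called, 8.52% higher and 62.6% lower, the members' median was -3.54 and that of all names -2.19. The log2 difference of miR-30a-5p was -4.63 ± 0.37 in differentiated and -4.38 ± 0.37 in undifferentiated cells, and that of miR-30a-3p was -2.61 ± 0.53 and -2.76 ± 0.53. Some calls depended on the setting. With DESeq2, 5 of 7 members passed in each state, and in undifferentiated cells miR-30c-5p lost its call with median-ratio factors, library totals and a pseudocount of 1 as well, and miR-30a-3p with median-ratio factors. In differentiated cells miR-30b-5p also lost its call with only the MS2 libraries that have few human-named reads. For miR-30b-5p in undifferentiated cells, with no read in the control, input was at least 13.0-fold higher, against 3 reads over the group. With that value in place of its fitted one the members' median stayed at -3.54.

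Whether the bait eluate over input difference itself changed between the states was tested as an interaction. No member passed, where 20.3% of the names were called, 16.7% higher in differentiated cells and 3.61% lower. The interaction was 2.06 ± 0.75 for miR-30a-3p (limma adjusted p = 0.0609) and 2.15 ± 0.76 for miR-30e-3p (limma adjusted p = 0.0565), against a median of 0.89 over all names. For the guide strands it ran from -0.23 to 0.67. Both opposite arms passed with edgeR (adjusted p = 0.0412 and 0.0247) and with a pseudocount of 50. With median-ratio factors or DESeq2 the median of all names was -0.20 or -0.45, the opposite arms did not pass, and miR-30a-5p and miR-30d-5p passed instead, with values of -1.37 to -1.58, lower in differentiated cells.

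Bait and MS2 eluates were then compared, which asks what the MRTF-A bait held beyond the control. In this comparison 5 of the 7 members were tested, since miR-30b-5p and miR-30c-5p were too scarce. In differentiated cells 1 member was higher with the bait and 2 were lower, where 79.3% of the 169 names tested were called, 57.4% higher and 21.9% lower. miR-30a-3p had 641, 763 and 638 CPM with the bait and 66.4, 172 and 271 CPM with the MS2 control, on 124 to 229 reads and 2 to 10 reads. All bait libraries lay above all controls, and the log2 difference was 2.13 ± 0.57 (limma adjusted p = 0.00456), close to the median of all names, 2.37. miR-30d-5p had 305, 277 and 303 CPM with the bait and 697, 961 and 1246 CPM with the control. It was lower in every bait library, with a log2 difference of -1.64 ± 0.36 (limma adjusted p = 0.00112), and that call held under all 22 alternatives. miR-30a-5p had 510.1, 536 and 309 CPM with the bait and 498, 1442 and 1056 CPM with the control. These groups overlapped, and the difference was -1.04 ± 0.40 (limma adjusted p = 0.0302). miR-30e-5p differed by -0.93 ± 0.65 and miR-30e-3p by -0.09 ± 0.63, and neither passed (limma). miR-30e-5p was called lower with median-ratio factors (-1.52, limma adjusted p = 0.0492), library totals (-2.24, limma adjusted p = 0.0200), DESeq2 (adjusted p = 0.00584) and without differentiated MS2 B (-1.53, limma adjusted p = 0.0401).

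Single libraries decided part of these calls. The miR-30a-5p call was lost without differentiated bait C (-0.79), MS2 B (-0.71) or MS2 C (-0.94), with adjusted p of 0.0869 to 0.149. The miR-30a-3p call was lost with library totals (0.73, adjusted p = 0.368) and with only the MS2 libraries that have few human-named reads (1.29, adjusted p = 0.149), which leaves 1 differentiated control that is assumed to vary like the other groups. In the authors' deposited table miR-30a-3p had a log2 fold change of 1.97 (FDR 0.0122), miR-30d-5p -1.72 (FDR 6.76e-05) and miR-30a-5p -1.14 (FDR 0.0726) in this comparison. The part of the MS2 libraries' kind in these results was not tested beyond those values.

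In undifferentiated cells 1 of the 5 members was lower with the bait and none was higher, where 60.4% of the 169 names were called, 43.2% higher and 17.2% lower. miR-30a-5p had 337, 382 and 429 CPM with the bait and 952, 736 and 1110.0 CPM with the control. The groups did not overlap, and it was lower with the bait, with a log2 difference of -1.25 ± 0.40 (limma adjusted p = 0.0166). Without undifferentiated bait A it was -1.16 (adjusted p = 0.0538), and without undifferentiated MS2 C -1.12 (adjusted p = 0.0625). miR-30d-5p had 261, 199 and 189 CPM against 263, 534 and 448 CPM with the control, with a difference of -0.86 ± 0.36 (limma adjusted p = 0.0554). It passed under 10 of 22 alternatives. miR-30e-5p differed by -1.26 ± 0.65, miR-30e-3p by -0.93 ± 0.63 and miR-30a-3p by 0.22 ± 0.57, and none passed.

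**Figure D5:**
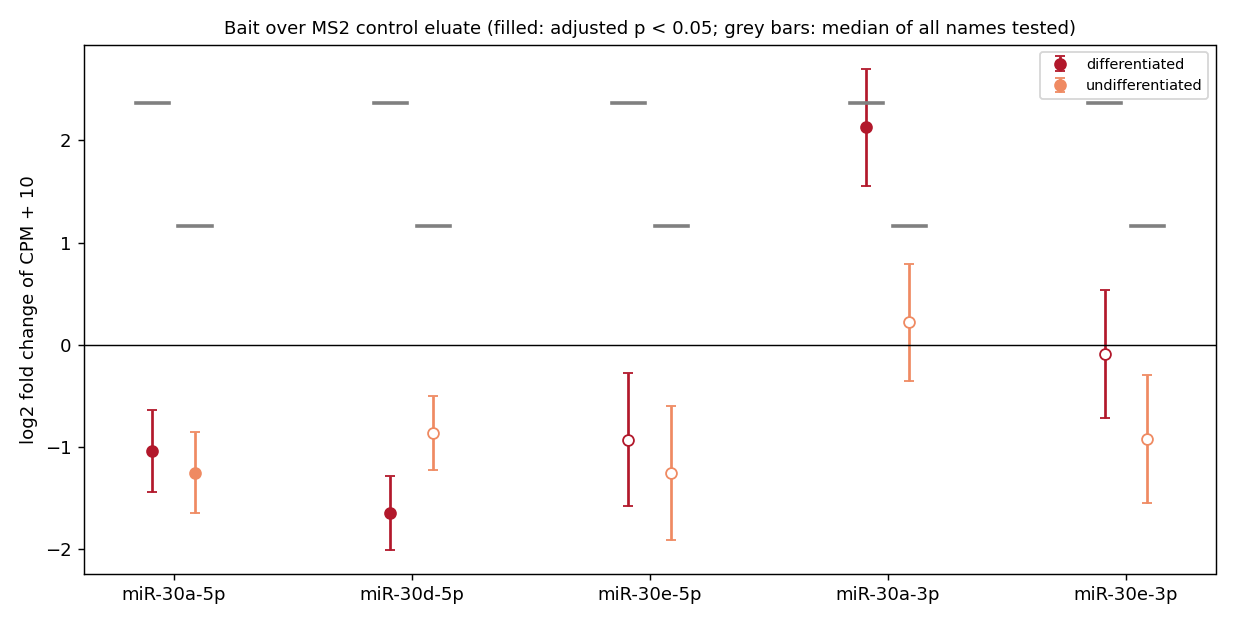
Log2 fold change of CPM + 10 in bait over MS2 control eluate (± SE from limma, 3 libraries per group) for the 5 members tested, in differentiated and undifferentiated cells; grey bars are the medians of all 169 names tested, 2.37 and 1.16. The 3 guide strands lie between -1.64 and -0.86, and miR-30a-3p in differentiated cells is at 2.13.

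The bait effect was not shown to differ between the states for any member. In the interaction 13.0% of the names were called, 8.28% higher and 4.73% lower, and no member was. The largest estimate was that of miR-30a-3p, 1.91 ± 0.81 (limma adjusted p = 0.133), followed by miR-30e-3p with 0.84 ± 0.89 and miR-30d-5p with -0.78 ± 0.51. With edgeR no name at all passed this interaction. Between the states within the bait eluates, where 38.5% of the names were called, 23.7% higher and 14.8% lower, no member passed, with log2 differences of 0.13 to 0.71. Within the MS2 controls, where 24.9% were called, 16.0% higher and 8.88% lower, 1 member did. miR-30d-5p had 697, 961 and 1246 CPM in differentiated and 263, 534 and 448 CPM in undifferentiated controls, a difference of 1.22 ± 0.36 on the log2 scale (limma adjusted p = 0.0283). That call was lost without differentiated MS2 B (1.21), differentiated MS2 C (1.02) or undifferentiated MS2 A (0.93), with adjusted p of 0.0704 to 0.0817.

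The family's seed matches were looked for in the longest annotated 3'UTR of Mrtfa (GENCODE vM21, GRCm38, chr15:81012281-81013284 on the minus strand, 1004 bases). The letters TGTTTAC, which pair with the seed of the guide strands, were not in it, nor was the shorter GTTTAC. Of 1350 3'UTRs whose length was within 10% of this one, 11.0% hold the longer motif and 21.5% the shorter. For the opposite arms, ACTGAAA, which pairs with the seed of miR-30a-3p and miR-30e-3p, and the shorter CTGAAA were not in it either, and 11.0% and 35.0% of the 3'UTRs of similar length hold these. Only the strand of the mRNA was read. The extent of the bait is not given in the sources used here, and no match says only that these letters are not in this annotated window.

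Beside other broadly expressed families, the counts were as follows. Of 11 let-7 names, 10 were tested with bait against MS2 control in differentiated cells and all 10 were higher, with a median of 4.89 on the log2 scale, while the 3 miR-30 guide strands tested had a median of -1.04 and none was higher. Of all names 57.4% were higher there, with a median of 2.37. Of the 2 miR-26 names 1 was called higher, and the 1 miR-29 name tested of 3 was higher, by 4.07. In input, the 5 miR-30 guide strands had a median of 0.23 and none passed. There 8 of 11 let-7 names fell, with a median of -1.21, where 46.3% of all names were lower and their median was -0.64. Of the 2 miR-26 names in input 1 rose and 1 fell, with a median of 0.11, and of the 3 miR-29 names 1 fell, with a median of -0.35.

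The names whose pattern over the 18 libraries was most like the mean log2 level of the 5 guide strands were miR-6239 (Pearson r = 0.974), miR-23a-3p (0.969), miR-145a-5p (0.969), miR-21c (0.963) and miR-1950 (0.960), among 292 names. The libraries share their kind and their scaling, and each of these names had a higher mean in both inputs than in any eluate group. Over the 6 group means, 3 of these 5 were again among the first 5. miR-145a-5p, miR-21c and miR-1950 had 69.0 to 179 CPM in the inputs and 0 CPM in both bait eluates and the undifferentiated MS2 control. Their r thus rests largely on inputs against values at the floor. Each guide strand is itself part of that mean and had r of 0.917 to 0.982 with it. The 3p arms are not in it, and miR-30e-3p had r of 0.841 and miR-30a-3p 0.632.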

How the data were processed

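Small RNA of 18 C2C12 libraries was analysed from 1 deposited table of 2042 miRNA names. The submitters' processing notes name GRCm38/mm10 as build, and as tools edgeR 3.18.1, featureCounts 1.4.6, Bowtie2 2.0.13 and cutadapt 1.4.2. Their settings, strand use and treatment of reads that match several names were not given. The signal deposited by the authors is a normalised CPM. Every value is a whole multiple of its library's step (100% within 0.01 read), which gave back whole reads, and the factors equal TMM factors over all 18 libraries. The log2 fold changes, p-values and FDR of the authors' deposited table are theirs, per the file headers.

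The design named a count test for counts and limma for a normalised signal. Because these values are normalised, limma 3.58.1 (trend, R 4.3.3) on log2(CPM + 10) was used. It ran on names kept by filterByExpr, with Benjamini-Hochberg adjustment within a comparison and a threshold of 0.05. Inputs (6), eluates (12) or all 18 libraries entered a fit, and comparisons that share a group share its libraries. All 7 members are named, with the 5 names of highest r. The members, lists and tests were chosen with earlier results of these data known, and miR-30f and the arm ratio test were added after values were seen. Alternatives were other scaling factors, edgeR 4.0.16 or DESeq2 1.42.0 run on whole reads, pseudocounts of 1 and 50, no filter, each library left out, and MS2 libraries of 1 kind. The tests were tested on simulated data. Intervals cover counting error only, and precision is lowest in the MS2 controls. Replicate libraries differed beyond read sampling, with chi-square of 3.90 or more per degree of freedom. Matching, ratios and figures used scipy 1.17.1, pandas 2.3.3, numpy 2.4.6 and matplotlib 3.10.9 in Python 3.11.15.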

Additional observations from a re-analysis of the deposited data

Results flagged for a closer look

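The bait eluate over input difference of miR-30b-3p, an opposite arm that is not among the 7 members, differed between the states by a test of the interaction. It was 2.51 ± 0.84 on the log2(CPM + 10) scale (differentiated minus undifferentiated; limma adjusted p = 0.0442), against a median of 0.89 over all names. In differentiated cells it had 30.5, 50.0 and 15.4 CPM in bait eluates and 5.51, 30.1 and 17.2 CPM in input, a difference of 0.62 ± 0.59. In undifferentiated cells it had 15.3, 24.9 and 25.2 CPM in bait eluates and 125, 72.2 and 133 CPM in input, a difference of -1.89 ± 0.59. The undifferentiated bait values rest on 1 to 3 reads a library, and the call was lost under 12 of 24 alternatives, with values of 1.33 to 3.21.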

How the results depend on the processing

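No paired analysis was possible because the table's columns do not carry the replicate numbers of the labels. The columns end in suffixes shared by the 6 groups, which the labels tie to no replicate number, and no fit blocked on the suffix was run. Low depth in the MS2 controls, where 1 read is worth 11.9 CPM or more, limits every comparison with them. The calls of the members against input with the bait kept their direction and side of the threshold under all 26 alternatives, miR-30a-3p in differentiated cells excepted. The cause of the changes below was not tested. In input, 3 members were higher with median-ratio factors, library totals, TMM factors of the inputs and DESeq2 (none as reported), and 1 was lower under all of these but library totals (2 as reported). Over all names these 4 gave 75 to 89 higher and 90 to 106 lower, against 50 and 145. There miR-30c-5p turned to 0.41, 0.27, 0.44 and 0.47 and miR-30e-5p to 0.49, 0.35, 0.52 and 0.52. For bait against MS2 control in undifferentiated cells, 1 member was lower as reported, 2 with median-ratio factors, TMM factors of the eluates or a pseudocount of 1, 3 with DESeq2 or the MS2 libraries with few human-named reads, 4 with library totals, and 0 with no filter or the MS2 libraries with many human-named reads. Over all 169 names, 29 were lower as reported, 38 with median-ratio factors, 37 with TMM and 63 with library totals. The median of all names was -0.25 with library totals, against 1.16 as reported. miR-30a-3p turned to -0.053, -1.62, -0.031 and -0.18 with median-ratio factors, totals, TMM and DESeq2. In differentiated cells 1 member rather than 2 was lower with TMM, no filter or the MS2 libraries with many human-named reads, where miR-30e-3p was 0.011, 3 were lower with median-ratio factors, totals or DESeq2, and 0 rather than 1 was higher with totals or the MS2 libraries with few. Over all 169 names, 37 were lower there as reported, 36 with TMM, 42 with median-ratio factors and 49 with totals. With totals 73 names were higher, against 97 as reported. For the MS2 controls between states, 0 rather than 1 member was higher with totals, TMM, DESeq2, no filter or the few-reads MS2 libraries. Of all 169 names, 27 were higher as reported, 17 with totals and 20 with TMM.

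In the difference of bait over input between states, 2 members were lower with median-ratio factors and DESeq2, and 2 higher with edgeR and a pseudocount of 50 (none as reported). Over all 305 names, median-ratio factors gave 4 higher and 17 lower, against 51 and 11 as reported. There miR-30c-5p was -0.60 and -0.50 and miR-30e-5p -1.03 and -1.21 with median-ratio factors and DESeq2, miR-30e-5p -0.051 with totals, miR-30a-5p 0.014 and miR-30b-5p 0.78 with edgeR, and miR-30b-5p 1.29 with a pseudocount of 1. In the difference of bait over MS2, miR-30a-5p was -0.16, -0.21 and -0.022, and miR-30e-5p -0.011, -0.48 and -0.66, with median-ratio factors, DESeq2 and the few-reads MS2 libraries, and miR-30e-5p -0.13 with edgeR. In bait eluates between states, median-ratio factors gave -0.20 for miR-30a-5p, -0.25 for miR-30e-5p and -0.0046 for miR-30e-3p. DESeq2 gave -0.28, -0.61 and -0.073, and -0.047 for miR-30d-5p, and edgeR -0.059 for miR-30e-5p. In MS2 controls, miR-30a-5p was 0.11 and 0.22 and miR-30e-5p 0.075 and 0.79 with edgeR and the few-reads libraries. For miR-30b-3p in differentiated cells, bait over input was -0.16 with totals and MS2 over input 0.23 with DESeq2.

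With each library left out in turn, members called ranged from 0 to 1 (input, higher), 0 to 2 (bait against MS2, undifferentiated, lower), 1 to 2 (differentiated, lower), 0 to 1 (MS2 between states, higher) and 0 to 2 (difference of bait over input, higher). The log2 value of miR-30d-3p in input ranged from -0.23 to 0.49, and that of miR-30c-2-3p in bait over input, differentiated, from -0.42 to 0.20. In the difference of bait over input, miR-30a-5p ranged from -0.26 to 0.21, miR-30b-5p from -0.40 to 0.38, miR-30d-5p from -0.39 to 0.0094 and miR-30e-5p from -0.27 to 0.73. In that of bait over MS2, miR-30a-5p ranged from -0.22 to 0.54 and miR-30e-5p from -0.27 to 0.83. For bait against MS2, miR-30e-3p in differentiated cells ranged from -0.72 to 0.44 and miR-30a-3p in undifferentiated cells from -0.23 to 0.64. Between states, miR-30e-5p in bait eluates ranged from -0.42 to 0.57, and in MS2 controls miR-30a-5p ranged from -0.34 to 0.42, miR-30e-3p from -1.01 to 0.15 and miR-30e-5p from -0.70 to 0.40. The miR-30a arm ratio ranged from -2.54 to -2.03 for bait minus MS2 and from 0.56 to 0.90 between states.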
